A study of Drosophila melanogaster with 12 samples.

Results

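The cytosolic ribosomal protein genes are described here in heads of flies that lack a working timeless gene. They were taken as all genes whose platform symbol begins with RpL or RpS followed by a digit or a P, from probe sets with 1 gene symbol. This gave 37 genes of the 10844 with a single-symbol probe set, 22 of the large subunit (RpL) and 15 of the small subunit (RpS). Each had 1 such probe set, so no choice between probe sets was needed. The RefSeq gene table lists 92 fly genes with symbols of this form, and the other 55 were not analysed here. A further 2 probe sets carry a ribosomal protein symbol together with that of another gene and were left out.

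All flies were of 1 genotype, y w; tim01, in which the clock gene timeless carries the null mutation tim01. Before sampling they were kept for 3 days on a schedule of 12 h light and 12 h dark. About 100 to 200 heads were pooled per time point, at 4 h steps, first for a day with the light cycle still running (LD) and then for a day without any light (DD). Hours are written ZT in LD, from the moment the lights came on, and CT in DD, from when they would have come on. The 12 arrays form groups of 3. ZT2, ZT6 and ZT10 are the LD light phase, and ZT14, ZT18 and ZT22 are its dark phase. CT2, CT6 and CT10 make up the subjective day of DD, while CT14, CT18 and CT22 make up its subjective night. No wild-type flies were analysed here, and sex and age are not given in the labels.

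Cytosolic ribosomes consist of a small subunit, which reads the messenger RNA, and a large subunit, which joins amino acids. Each holds ribosomal RNA and many proteins, most of them made in equal amounts. In flies most of these proteins come from a single gene, and loss of 1 copy of such a gene often gives the Minute phenotype of slow development and thin bristles. A smaller set of genes has a second copy, some of them known for expression in the testis or ovary, such as RpL22-like, RpS5b and RpS19b. RpL7-like, RpL24-like and RpLP0-like carry ribosomal names as well, but their yeast counterparts are factors of ribosome assembly.

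Values are log2 RMA signals, the logarithm of a probe set's brightness after normalization between arrays. The array medians were 4.10 to 4.14, and any 2 arrays correlated over their probe sets at 0.988 to 0.997. Photoreceptor transcripts were bright, with Arr2 between 11.76 and 12.08 and trp between 9.22 and 9.62. Of 15 photoreceptor and neuron genes measured, 13 had a median above that of the arrays, while elav (3.69) and para (2.87) did not. A median above it was also found for 13 of 22 gut enzyme genes, so such a signal alone does not mark the tissue. The probe set of tim read 6.62 to 7.12, which checks nothing of the mutation, since its position in the gene was not looked up. Transcripts of gut enzymes (22 genes measured) and of the male reproductive tract (24 genes) were high on ZT2, ZT18 and CT2. As deviations from the genes' own means, the gut list was at 0.87, 0.05 and 0.45 there, against -0.21 to -0.01 on the other 9 arrays, and the male list at 0.69, 0.26 and 0.38, against -0.19 to -0.03. Several results below are also given without these 3 arrays.

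The mean signals of the 37 genes differed by kind of gene, with the lowest mean outside the paralog list (RpS29, 6.71) close to the highest in it (RpL24-like, 6.35). The 27 genes outside a list of 10 second copies and assembly factors ranged from 6.43 to 12.05 over all arrays, and 26 of them averaged 9 or more. The signal of a probe set depends on its probes as well as on the transcript, so these ranges order the probe sets and not the amounts of RNA. The 5 with the highest mean signals were RpS26, at 11.91 ± 0.08 (SD, n = 12 arrays), RpS20 at 11.73 ± 0.10, RpL17 at 11.62 ± 0.09, RpS7 at 11.57 ± 0.07 and RpS30 at 11.43 ± 0.08. RpS30 is made as a fusion with a ubiquitin-like protein. Neighbours in this order lie closer together than their spread over the arrays in several cases, as for RpL17 and RpS7. RpL32, whose transcript (rp49) is a common reference for measurements of RNA in flies, had a mean of 11.38 and lay between 11.23 and 11.62.

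The probe sets of the 10 second copies and assembly factors read lower on the signal scale. RpL24-like averaged 6.35, RpL37-2 6.10, RpL7-like 5.89, RpS5b 5.63 and RpLP0-like 4.66. The 5 lowest were RpS28a at 4.14 ± 0.13, RpS19b at 4.0 ± 0.09, RpS10a at 2.74 ± 0.06, RpL22-like at 2.63 ± 0.09 and RpL10Aa at 1.94 ± 0.08 (SD, n = 12 arrays). Of the 37 members 33 averaged more than the median of all values, 4.12, and the 4 that did not were RpS19b, RpS10a, RpL22-like and RpL10Aa. Because RMA shrinks differences at low signal, changes of these dim genes may be understated. On the 3 arrays rich in male reproductive tract transcripts, the mean of the 10 genes relative to their own means was -0.01, -0.03 and 0.01, within its range of -0.09 to 0.09 on the other 9 arrays. That mean pools second copies with assembly factors, so it does not speak for single genes.

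**Figure D1:**
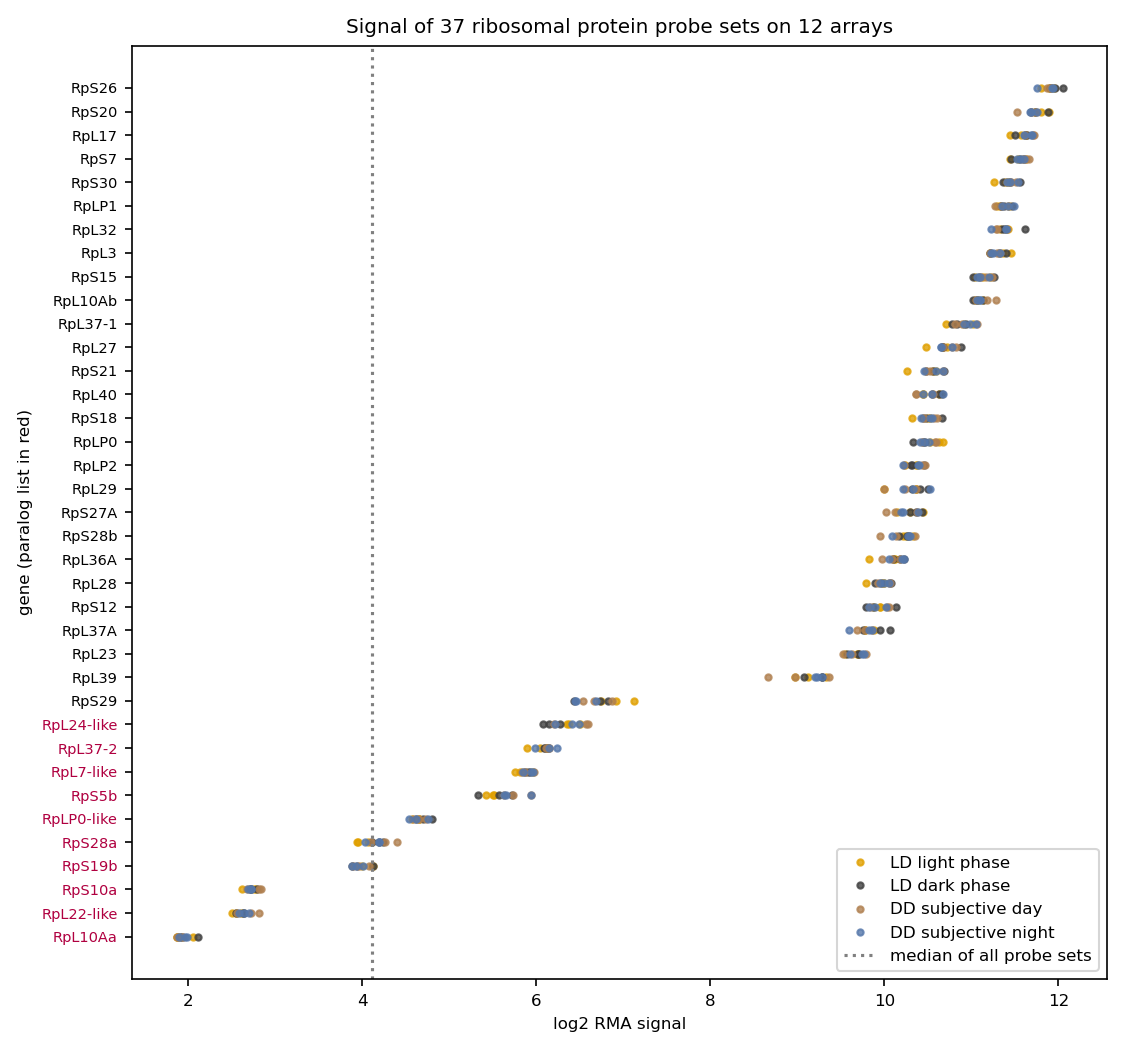
Log2 RMA signal (horizontal axis) of each of the 37 genes (rows, ordered by mean) on the 12 arrays, coloured by group, with the median of all probe sets as a dotted line. The 26 genes from RpS26 down to RpL39 average 9 or more, while the 10 genes of the paralog list, in red, average between 1.94 and 6.35; signals of different probe sets are not amounts of RNA on one scale.

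Signals of the members varied little over the 2 days. In whole heads, fewer cells with a transcript and less of it per cell cannot be told apart. The range over the 12 arrays was 0.34 at the median gene, from 0.21 for RpS7 and RpLP1 to 0.70 for RpL39, a small protein of the exit tunnel for the growing chain. The SD over arrays was 0.10 at the median of the 27 genes outside the paralog list and 0.09 at that of the 10 genes in it. The 132 other genes with a mean signal of 9 or more had a median SD of 0.13, and all genes one of 0.11. The largest SDs among the members were those of RpS29 (0.21), RpL39 (0.20), RpS5b (0.19), RpL29 (0.17) and RpL24-like (0.17).

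The small variation outside the paralog list was shared by most of the genes. Averaged over the 27 genes and relative to each gene's mean, the level in LD was -0.10, 0.066, 0.004, 0.105, -0.004 and -0.041 in the order of the hours, and in DD it was -0.082, 0.080, -0.031, -0.066, 0.066 and 0.003. The highest array was thus ZT14, soon after lights-off, where 24 of the 27 genes stood above their own mean and 11 reached their maximum. The lowest was ZT2, where 3 of the 27 stood above their own mean and 9 were at their minimum. The number above their own mean was 24 at ZT6, 26 at CT6 and 23 at CT18, against 4 at CT2, 6 at CT14 and 7 at ZT22.

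These highs and lows did not follow the groups, since each of the 4 groups held arrays on both sides of 0. The mean of the 27 genes was -0.01 ± 0.08 in the LD light phase and 0.02 ± 0.08 in the LD dark phase (SD, n = 3 arrays each). It was -0.01 ± 0.08 in the DD subjective day and 0.00 ± 0.07 in the subjective night. Both subunits moved alike, at -0.11 (large) and -0.09 (small) at ZT2 and at 0.09 and 0.13 at ZT14. Over the 12 arrays their means had a Pearson r of 0.88 (rho 0.87), and r was 0.84 without ZT2, ZT18 and CT2. The points of this correlation share their arrays and the normalization.

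The arrays with the lowest levels of the 27 genes, ZT2 and CT2, are those with the most gut and male reproductive tract transcripts. ZT18, the third array rich in these, was at -0.004. The 3' minus 5' signal of the eIF-4a control probe sets, which follows the integrity of the RNA, was 3.32 at ZT2, 3.20 at ZT14 and 2.81 at CT2, within 2.56 to 3.32 over all arrays. The part of either in the levels was not tested.

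**Figure D2:**
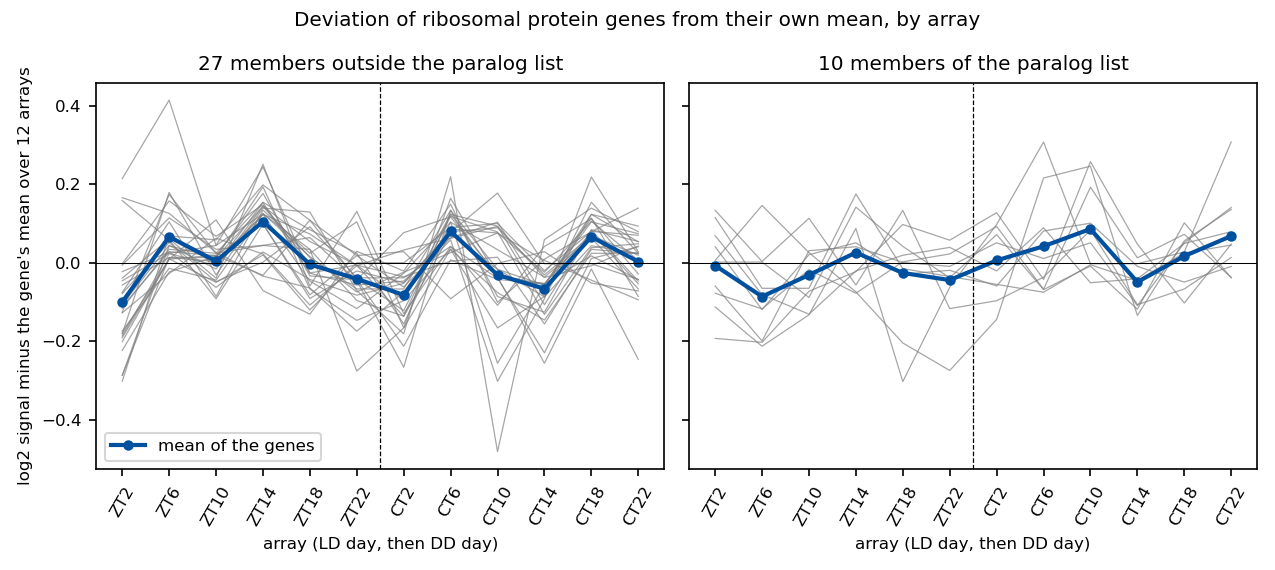
Log2 signal of each gene minus its own mean over the 12 arrays (vertical axis), by array from ZT2 to CT22 (horizontal axis; the dashed line divides LD from DD), with the mean of the genes in blue. Most of the 27 genes outside the paralog list (left) rise and fall together, and their mean lies between -0.10 at ZT2 and 0.105 at ZT14. The 10 paralog list genes (right) have a mean between -0.09 and 0.09 with little in common.

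How far each gene followed the others was measured by the Pearson correlation of its signal with the mean of the other 36 members over the 12 arrays, given as a description. Outside the paralog list the median r was 0.62, and 19 of 27 genes had an r above 0.5. Such a value was found for 12.1% of the 132 other genes with a mean signal of 9 or more, whose median r with the mean of the members was 0.12. The 5 most typical genes were RpS21 (r = 0.89, rho = 0.96), RpL23 (0.87), RpS18 (0.86), RpS12 (0.84) and RpL36A (0.81). RpS12 is known in flies for its part in the competition of cells that differ in ribosomal protein gene dose. RpS21 read 10.26, 10.59, 10.56, 10.69, 10.56 and 10.48 over the hours of LD and 10.48, 10.68, 10.53, 10.46, 10.67 and 10.60 over those of DD. It was low at ZT2 and CT14 and high at ZT14, CT6 and CT18, so that every group overlapped the others.

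The pairs among the 27 genes had a median r of 0.42, and 84.6% of the 351 pairs were positive. Among the other genes with a mean signal of 9 or more the median was 0.06, with 56.1% positive. The medians of r with the other members were 0.57 without ZT2, ZT18 and CT2, and 0.51 without ZT2 and ZT14, the arrays farthest from the median.

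Outside the paralog list 2 genes had an r below 0. RpL3, a protein of the large subunit close to its catalytic centre, had an r of -0.38 (rho -0.26). It read 11.46, 11.36, 11.21, 11.40, 11.22 and 11.32 in LD and 11.33, 11.21, 11.30, 11.33, 11.25 and 11.23 in DD. Its highest value was at ZT2, where 24 of the 27 genes stood below their own mean. Its r was -0.10 without ZT2, ZT18 and CT2, and -0.57 without ZT2 and ZT14. RpLP0, the base of the stalk that binds translation factors, had an r of -0.03 (rho 0.01), which was 0.19 without those 3 arrays and 0.39 without ZT2 and ZT14. Those values lie among the ones of other bright genes, such as RpL37-1 (0.04 without the 3 arrays) and RpS7 (0.23 without ZT2 and ZT14). The acidic proteins that complete the stalk, RpLP1 and RpLP2, had values of 0.40 and 0.64.

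Genes of the paralog list had r from -0.29 to 0.42 and a median of 0.15, or 0.26 without ZT2, ZT18 and CT2. Single values moved with the arrays: that of RpLP0-like was 0.33 with all arrays and 0.65 without those 3, and that of RpL24-like 0.42 with all and 0.68 without ZT2 and ZT14. Those with negative values were RpL22-like (-0.29), RpS28a (-0.24) and RpS19b (-0.15). For 4 listed pairs both genes were measured, 1 of them RpLP0 with RpLP0-like, whose yeast counterpart is an assembly factor. RpS28a and RpS28b had an r of -0.55 (rho -0.59) with each other over the 12 arrays, RpL37-2 and RpL37-1 one of 0.28, RpL10Aa and RpL10Ab one of 0.04, and RpLP0-like and RpLP0 one of -0.19.

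**Figure D3:**
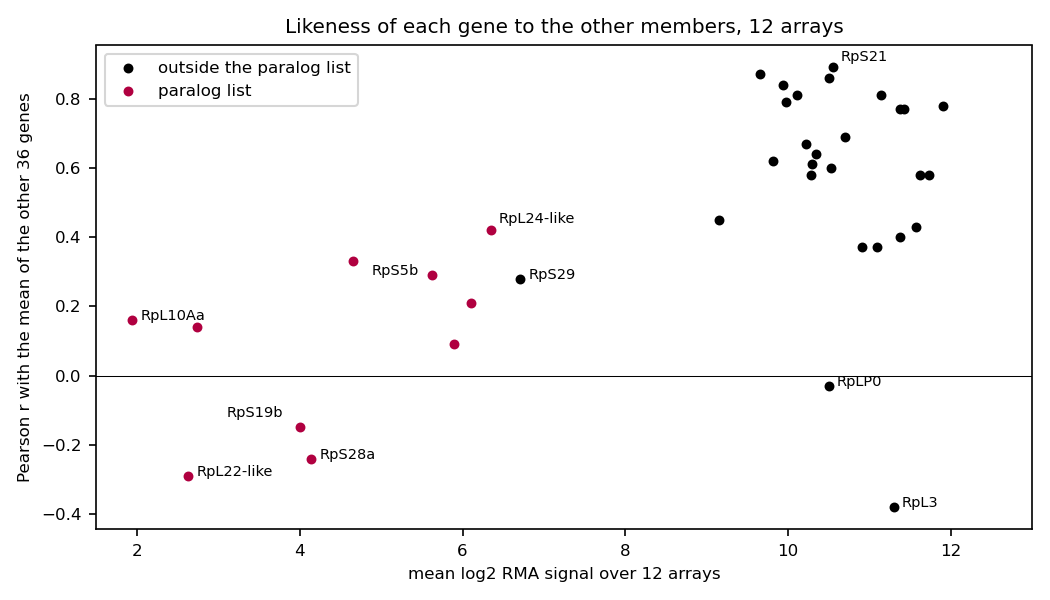
Pearson r of each gene with the mean of the other 36 genes over 12 arrays (vertical axis) against its mean log2 RMA signal (horizontal axis), with the paralog list in red. Most genes with a mean of 9 or more lie above 0.5, RpLP0 (-0.03) and RpL3 (-0.38) lie below 0, and the paralog list runs from -0.29 to 0.42.

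Among genes that are not members, the 5 whose signal was most like the mean of the 37 members over the 12 arrays were CG17776 (r = 0.90), CG3420 (0.87), CG13220 (0.85), the odorant-binding protein gene Obp18a (0.84) and ND-B14.5B (0.84), which encodes a subunit of mitochondrial complex I. Without ZT2, ZT18 and CT2 their r was 0.89, 0.81, 0.86, 0.83 and 0.82. These genes were picked as the highest of all non-members, and the arrays kept are among those used to pick them. High values are therefore built into the choice and do not show a shared control with the members.

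Setting the light hours against the dark hours of LD asked whether ribosomal protein transcripts follow the light-dark cycle in these flies. None of the 37 genes passed (limma, 0 of 37, smallest adjusted p = 0.713), against 0.129% of all probe sets. An unadjusted p under 0.05 was found for 4 members, 10.8%, against 6.26% of all probe sets. Of these members 3 were positive (3.47% of all probe sets) and 1 was negative (2.79%). Their number depended on single arrays, at 0 without ZT6, 0 without ZT22 and 1 without ZT2. Of all 13966 probe sets, 700, 744 and 909 had such a p in these fits. The changes, light minus dark, ran from -0.20 to 0.26 with a median of -0.05, 11 positive and 26 negative, and the median of all probe sets was -0.01. The median of the members depended on single arrays: it was -0.014 with 17 positive without ZT2 and -0.012 with 18 positive without ZT14. Without ZT2, ZT18 and CT2 it was -0.03 with 15 positive. Other settings moved it the other way. It was -0.061 with 8 positive without ZT22, and -0.073 with 6 positive with the RNA integrity measure from eIF-4a as a covariate. Light and dark arrays did not overlap for 3 genes (12.2% of all probe sets), RpLP0 and RpL24-like with higher light values (5.62%) and RpS28a with lower ones (6.56%).

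The largest positive changes belonged to RpS29, RpL24-like and RpLP0. RpS29, a small zinc-binding protein of the small subunit, read 6.92, 7.12 and 6.75 in the light and 6.83, 6.74 and 6.43 in the dark. The ranges overlapped, and the change was 0.26 ± 0.12 (SE; limma, adjusted p = 0.769). RpL24-like read 6.36, 6.50 and 6.38 in the light and 6.28, 6.15 and 6.08 in the dark, a change of 0.24 ± 0.10 (limma, adjusted p = 0.734). All light values lay above all dark values. RpLP0 read 10.67, 10.63 and 10.53 in the light and 10.47, 10.44 and 10.33 in the dark, a change of 0.20 ± 0.08 (limma, adjusted p = 0.713), again without overlap. Its LD values were lower at each later hour, so its contrast cannot be told apart from a trend over the day.

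The largest negative changes were those of RpS28a, RpL29 and RpL36A. RpS28a read 3.95, 3.94 and 4.07 in the light and 4.12, 4.24 and 4.20 in the dark, a change of -0.20 ± 0.08 (SE; limma, adjusted p = 0.730). All of its light values were below the dark ones, by a small margin and near the array median. RpL29 changed by -0.17 ± 0.12 and RpL36A by -0.16 ± 0.09 (limma, adjusted p = 0.931 and 0.892), and both had their lowest LD value at ZT2. Without that array the changes were -0.046 for RpL29 and -0.057 for RpL36A. Without ZT2, ZT18 and CT2 the change of RpS5b was -0.19, against -0.06 with all arrays. For the 37 genes the 95% intervals of the change lay between -0.41 and 0.51 on the log2 scale, and the upper end corresponds to a 1.42-fold difference.

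On the dark day, setting the subjective day against the subjective night asked the same question without light. None of the members passed (limma, 0 of 37, smallest adjusted p = 0.829), against 0.0644% of all probe sets, and 0 had an unadjusted p under 0.05, against 5.84% (3.25% positive and 2.59% negative). The groups overlapped for every member, while they did not for 10.2% of all probe sets (5.4% positive and 4.82% negative). Changes, day minus night, ran from -0.24 to 0.17 with a median of 0.02, 23 positive and 14 negative, and all probe sets had a median of 0.01. This balance turned round without CT14, where the median was -0.032 with 14 positive, and with the RNA integrity measure from eIF-4a as a covariate, which gave the same values. The most negative was RpL39, which read 8.97, 9.37 and 8.67 in the subjective day and 9.21, 9.29 and 9.23 in the subjective night. Its change of -0.24 ± 0.13 (SE; limma, adjusted p = 0.829) rests on wide scatter in the subjective day. RpL29 changed by -0.15 ± 0.12 and RpL40, a ribosomal protein made as a fusion with ubiquitin, by -0.13 ± 0.09. On the positive side were RpS29 (0.17 ± 0.12), RpS28a (0.12 ± 0.08) and RpL24-like (0.09 ± 0.10). The 95% intervals of the 37 genes lay between -0.52 and 0.41.

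The difference between the LD and DD contrasts was tested directly. Again 0 of 37 members passed (limma, smallest adjusted p = 0.935), against 0.0% of all probe sets, and 1 had an unadjusted p under 0.05, 2.7%, against 5.21% (2.5% positive and 2.71% negative). This was RpS28a, whose LD contrast was more negative than its DD contrast by 0.32 (LD minus DD -0.32 ± 0.12 SE, adjusted p = 0.935). In DD it read 4.27, 4.10 and 4.40 in the subjective day and 4.19, 4.04 and 4.19 in the subjective night, with overlap. The other most negative differences were those of RpL27 (-0.17 ± 0.13) and RpS18 (-0.13 ± 0.12), and the most positive those of RpL39 (0.17 ± 0.19), RpL24-like (0.16 ± 0.14) and RpLP0 (0.12 ± 0.11).

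**Figure D4:**
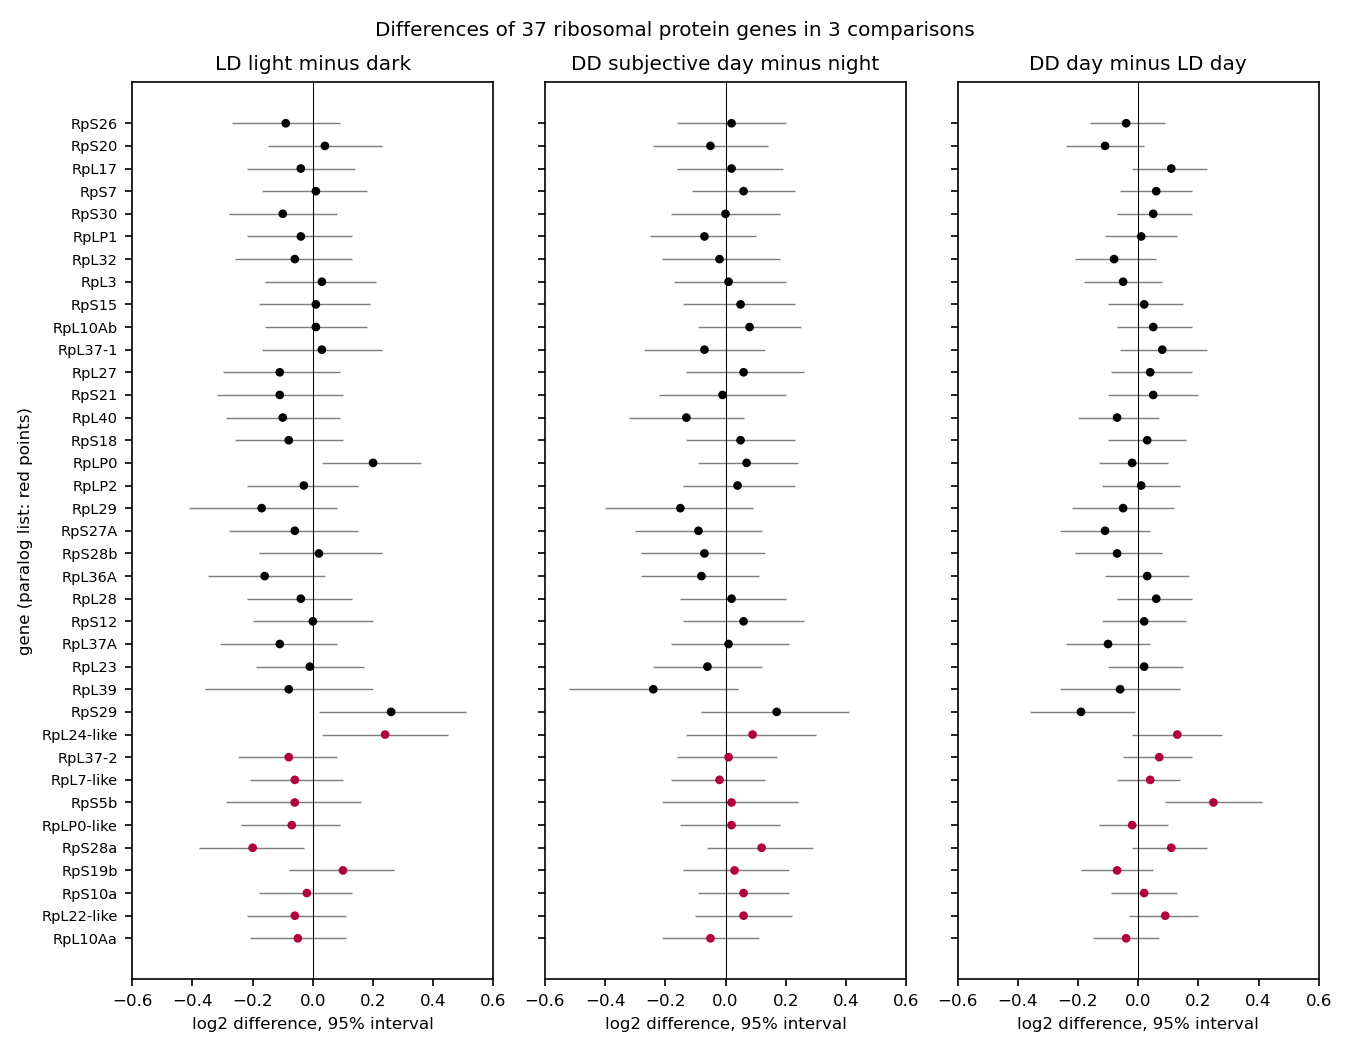
Log2 difference of each gene (rows, ordered by mean signal; paralog list in red) with its 95% interval from limma, for LD light minus dark, DD subjective day minus night, and DD day minus LD day. All points lie between -0.24 and 0.26, and none of the 37 genes passed in any of the 3 comparisons.

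The DD day was then compared with the LD day, a comparison in which darkness, the later day and the order of sampling cannot be told apart. None of the members passed (limma, 0 of 37, smallest adjusted p = 0.224), against 0.0215% of all probe sets, and 2 had an unadjusted p under 0.05, 5.41%, against 11.1%; 1 was positive (5.46% of all probe sets) and 1 negative (5.62%). The ranges of the days overlapped for every member and for all but 0.516% of probe sets (0.251% positive and 0.265% negative). The median change, DD minus LD, was 0.02, with 22 positive and 15 negative, and 0.01 over all probe sets. Left-out arrays turned it to -0.001 (without ZT2 or ZT22) and -0.002 (without CT6). The integrity measure, eIF-4a signal at the 3' end less that at the 5' end, also differed between the days, at 2.56 to 3.04 in DD and 2.89 to 3.32 in LD. With it as a covariate the median was -0.051 and 9 of the 37 changes were positive. RpS5b, known for its expression in the ovary, had the largest change, 0.25 ± 0.08 (SE; limma, adjusted p = 0.224). It read 5.73, 5.94, 5.63, 5.63, 5.66 and 5.94 over the hours of DD, against 5.52, 5.42, 5.50, 5.72, 5.33 and 5.57 over those of LD. The DD value was the higher at 5 of the 6 clock hours, and the days overlapped through ZT14. With the eIF-4a covariate its change was 0.183 with an SE of 0.131 (limma, adjusted p = 0.966), against an SE of 0.075 without the covariate.

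RpS29 had the most negative change, -0.19 ± 0.08 (SE; limma, adjusted p = 0.418), and was lower in DD at 5 of the 6 clock hours. It averaged 6.61 ± 0.16 in DD and 6.80 ± 0.23 in LD (SD, n = 6 arrays each). Also negative were RpS27A, which encodes a fusion with ubiquitin, and RpS20, both at -0.11 (SE 0.07 and 0.06). After RpS5b the most positive were RpL24-like (0.13 ± 0.07), RpS28a and RpL17 (both 0.11 ± 0.06). In the paralog list 7 of 10 genes were positive with a median of 0.05, and outside it 15 of 27 with a median of 0.01.

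**Figure D5:**
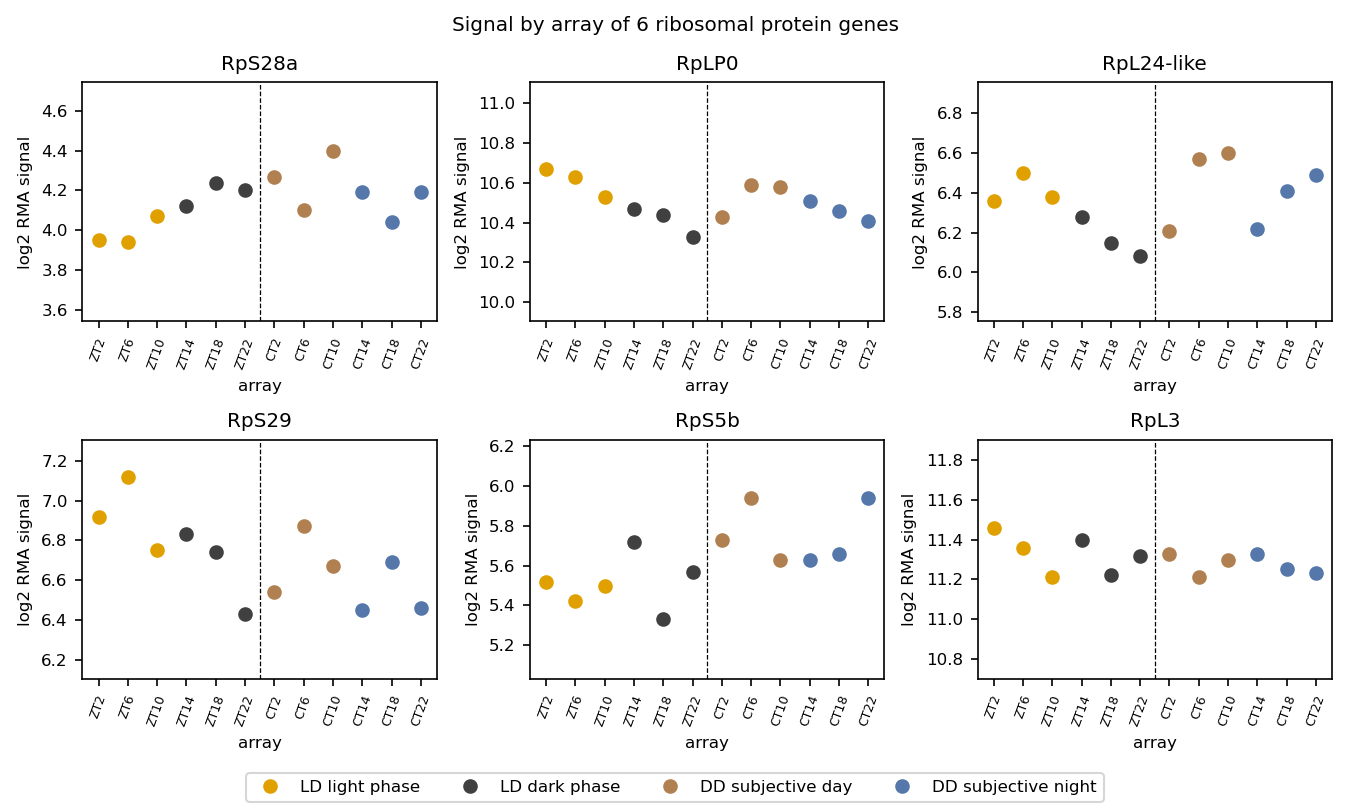
Log2 RMA signal (vertical axis, the same span in each panel) of 6 genes on the 12 arrays (horizontal axis), coloured by group. The dashed line divides LD from DD. RpL3 is shown for its low r with the other members, and the other genes are named in the comparisons. In LD, RpS28a, RpLP0 and RpL24-like separate the light from the dark phase, as do 12.2% of all probe sets. Their subjective day and subjective night overlap in DD, but the LD minus DD difference did not pass for any of them. RpS29, RpS5b and RpL3 overlap between the phases in both days, and none of the 6 passed a test.

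Rhythms of 24 h were fitted to each day. In LD 0 of 37 members passed (limma F test, smallest adjusted p = 0.886), against 0.107% of all probe sets, and in DD 0 of 37 (smallest adjusted p = 1.0), against 0.00716%. With an unadjusted p under 0.05 there were 0 members in LD (5.73% of all probe sets) and 0 in DD (3.72%). The fitted amplitude, from mean to peak on the log2 scale, had a median of 0.08 in LD and 0.05 in DD over the members. It was 0.07 in both days over all probe sets. The largest in LD were those of RpS29 (0.21), RpL24-like (0.19) and RpL29 (0.18), with fitted peaks at 7.2, 7.3 and 14 h. In DD they were those of RpL29 (0.15), RpL39 (0.14) and RpS5b (0.13).

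Other genes of the translation machinery were read beside the ribosomal proteins, from lists of factors. The 4 elongation factor genes measured had 0 calls in each of the 6 tests (limma). The nearest was eEF5, whose product helps ribosomes past runs of proline, at -0.25 ± 0.07 in DD against LD (SE, adjusted p = 0.192). Of 23 initiation factor genes 1 rose in the LD light phase, NAT1, a relative of the scaffold factor eIF4G used for translation without a cap (5.33 ± 0.12 in the light and 4.83 ± 0.13 in the dark, SD, n = 3 arrays each; limma, adjusted p = 0.03). Its change of 0.51 ± 0.08 (SE) kept its sign under all 22 alternatives, between 0.44 and 0.57, but passed under 13 of them. The adjusted p reached 0.199 without ZT18, 0.18 without ZT6, 0.13 without ZT10 and 0.126 without ZT14, and it was 0.125 in the LD arrays alone. In DD it ran the other way, at 4.84 ± 0.07 in the subjective day and 5.07 ± 0.09 in the subjective night. The LD minus DD difference of its contrasts was 0.73 ± 0.12 (SE; limma, adjusted p = 0.0898), and this passed under 5 of 22 alternatives, among them clock hour as a block (adjusted p = 0.0363). In the other 5 tests 0 of the 23 passed. After NAT1, the genes with the smallest p were eIF5 (-0.24 ± 0.06) and eIF3g1 (0.20 ± 0.06), both in DD against LD (adjusted p = 0.172 and 0.173).

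Among 16 genes of ribosome biogenesis 0 passed in any of the 6 tests, with Nopp140, a nucleolar protein, at -0.24 ± 0.07 in DD against LD (SE; limma, adjusted p = 0.209). The same held for 16 genes that set the rate of translation with growth, such as S6k, the kinase of ribosomal protein S6 (-0.21 ± 0.08, adjusted p = 0.346), and crc, the fly ATF4 (-0.16 ± 0.06, adjusted p = 0.302), both in DD against LD. Rack1, a scaffold protein on the small subunit, differed by 0.15 ± 0.09 between subjective day and night (adjusted p = 0.831). Of 64 genes for mitochondrial ribosomal proteins 0 passed in any test. In LD 13 of them were positive and their median, light minus dark, was -0.07, with mRpS18A the most separated at -0.31 ± 0.08 (adjusted p = 0.244). An unadjusted p under 0.05 (limma) was found for 4 of the 64, all negative, against 6.26% of all probe sets (2.79% negative). Their mean level was -0.135 at ZT2 and 0.072 at ZT14, the arrays at which the 27 cytosolic genes also had their lowest and highest means. On the remaining LD arrays the mitochondrial mean was 0.001 at ZT6, 0.003 at ZT10, -0.049 at ZT18 and 0.019 at ZT22. How far the mitochondrial median depends on single arrays was not tested.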

How the data were processed

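The authors deposited log2 signals from RMA, per the submitters' processing notes, which give no version of it. Because this method gives all arrays a near-equal distribution of values, it hides a shift shared by most transcripts, and it shrinks differences of dim probe sets. The number of arrays, 12 with 1 per time point, limits the precision, and the labels say nothing of repeated sampling of a time point: p-values rest on how much hours of a phase differ, which may be technical.

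Of 14010 probe sets, 44 controls were left out and 13966 were tested with limma 3.58.1 in R 4.3.3 (linear models moderated with an intensity trend), with Benjamini-Hochberg adjustment over all of them and a threshold of 0.05. A model of group means (8 residual degrees of freedom) gave 4 contrasts, and a 24 h cosinor model per day (6 residual degrees of freedom) gave F tests of the rhythm in LD and in DD. The fits were tested on simulated data. Gene symbols come from the platform annotation. A gene was represented by its brightest probe set, and genes were named by a rule: both copies of paralog pairs, the largest changes of each test, the highest and lowest levels, the largest SDs, the highest and lowest correlations, the stalk genes, and, of the other lists, genes with the smallest p or the highest likeness. The members, the rule and all gene lists were chosen with earlier results of these data known. No paired design is given; clock hour as a replicate block was an alternative for DD against LD and, added after seeing the data, for the difference, beside other moderation, weights, filters, scalings, a covariate and left-out arrays.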

Additional observations from a re-analysis of the deposited data

Results flagged for a closer look

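Within the 6 arrays of a day, 4 values of members lay far from the other 5, in 74 groups of 6 examined. Chance gives about 1 such flag in 20 groups, and the arrays of a day are different hours. RpL32 read 11.62 at ZT14, against 11.33 to 11.42 on the other LD arrays. RpL29 had a signal of 10 at ZT2, against 10.32 to 10.50, and RpL36A read 9.82 at ZT2, against 10.10 to 10.23. RpS20 read 11.52 at CT2, against 11.68 to 11.75 on the other DD arrays. Of these, 3 lie on ZT2 or CT2, the arrays with the most gut and male reproductive tract transcripts, and the part of those transcripts was not tested.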

How the results depend on the processing

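No member passed in any of the 6 tests under any alternative run (0 of 37, or of the 33 kept by the filter on dim probe sets, with 22 alternatives a test). The smallest adjusted p of a member was 0.133, in DD against LD with clock hour as a replicate block, where 45 probe sets passed instead of 3. That block rests on clock hours shared by the days. Deviations of arrays of the same hour correlated at 0.04 to 0.46, over 0.1 for 4 of 6 hours. The LD array correlated best with its own hour in 4 of 6. The highest value, 0.46, was that of ZT2 with CT2, the arrays with the most gut and male reproductive tract transcripts. The part of those transcripts in it was not tested. The same block on the LD minus DD difference, added after seeing the data, gave 3 probe sets instead of 0 and 0 members, with 4 residual degrees of freedom. No paired analysis was possible for the remaining tests because they compare different hours or fit hours within a day. The median change of the members moved by more than its spread between arrays in 2 cases: in DD against LD it was -0.051 with the eIF-4a covariate, instead of 0.02, and the LD minus DD difference ran from -0.075 (without CT18) to 0.011 (without ZT14) when arrays were left out one at a time, against -0.057 with all. Counts of all probe sets ranged from 1 (with LD arrays alone) to 54 (without ZT2) for LD light against dark, where it was 18 with all arrays, 0 to 18 (DD subjective day against night, 9; 0 without CT2 or CT22), 0 to 4 (the difference, 0), 0 to 95 (DD against LD, 3; 95 without CT6, 46 without ZT2), 1 to 38 (LD rhythm, 15; 1 without ZT10) and 1 to 2 (DD rhythm, 1). NAT1, the initiation factor gene called in LD, had adjusted p-values from 0.00557 to 0.199. Averaging all probe sets of a gene left the members' values as they were, since each has 1.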

Other observations

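The control probe sets for 18S ribosomal RNA, which took no part in the tests, varied far more than the ribosomal protein genes. The probe set for the middle of the molecule read 4.70, 5.92, 5.73, 4.07, 6.82 and 4.99 over the hours of LD and 5.90, 5.86, 5.18, 5.20, 5.99 and 5.39 over those of DD, a span from 4.07 at ZT14 to 6.82 at ZT18. On the same arrays the mean of the 27 ribosomal protein genes outside the paralog list was at 0.105 and -0.004. A mean over genes varies less than single probe sets do, but the largest range of a single member over the arrays was 0.70. Whether the control signals follow the amount of 18S ribosomal RNA was not tested. The probe sets for the ends of the molecule were lowest at ZT14 (2.42) for the 5' end and at ZT2 (2.65) for the 3' end, and highest at ZT18 for both (3.98 and 4.31).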
